A study of Mus musculus with 7 samples.

Results

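Radial glia and neural stem cell markers were examined in cultured mouse neural stem cells (NSCs). The list held 10 genes, Fabp7, Nes, Vim, Pax6, Prom1, Msi1, Msi2, Ddah1, Lhx2 and Fut9, chosen by name as marker genes and found among the 55335 gene identifiers of the count files through their Gencode symbols. All 10 were detected in every sample and passed the filter on low counts, which kept 13305 genes. The cells were FVB/N NSCs grown in medium with epidermal and fibroblast growth factor. There were 4 wild-type (WT) samples and 3 samples carrying the null allele Smchd1MommeD1 (Smchd1-null), in which the chromatin repressor Smchd1 is lost. Long reads of unamplified cDNA were obtained in 2 sequencing batches that also differed in the version of the library kit. WT replicate 2 and Smchd1-null replicates 1 and 2 belonged to batch 1, WT replicates 3 and 4 and Smchd1-null replicate 3 to batch 2, and the counts of WT replicate 1 were the sum of both. The labels give no age and do not say whether the samples came from separate animals, so the p-values measure only the spread between these samples.

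Radial glia are the elongated progenitors that line the ventricles of the developing brain and give rise to neurons and later to glia. Neural stem cells held in culture keep many of their genes on. The markers belong to different parts of the cell: a fatty acid carrier of the cytoplasm, intermediate filament proteins, transcription factors of forebrain and eye development, RNA-binding proteins that hold progenitors in an undifferentiated state, a surface glycoprotein and an enzyme that makes a surface sugar. Smchd1 is best known for its part in silencing the inactive X chromosome and clusters of imprinted genes.

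Library size lay between 2.74 and 7.74 M counts per sample, so that 3 counts corresponded to 0.399 to 1.13 CPM (counts per M counts of the library size scaled by TMM, the trimmed mean of M-values). Smchd1 stood at 66.9, 56.4, 74.7 and 55.7 CPM in WT replicates 1 to 4 and at 17.3, 12.8 and 18.4 CPM in Smchd1-null replicates 1 to 3, with no overlap. Its log2 fold change (logFC) was -2.15 (SE 0.18, adjusted p = 0.00011, limma), in the direction that the labels give. Of 6 listed microglial markers, 4 endothelial and 5 fibroblast or mural markers, none passed the filter on low counts, and their summed levels did not exceed 2.06, 3.93 and 3.94 CPM in any sample. Tmem119 and C1qa, which define microglia, and Lum, a fibroblast gene, had no count. The markers of the labelled cell type were present throughout.

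The promoters of Nes and Fabp7 are given first, since these 2 genes differed most clearly between the batches, in opposite directions. Each line holds the 200 bases from 250 to 51 bases before the RefSeq start (GRCm38.p6), read 5′ to 3′ on the gene's own strand, which is the plus strand for both. Capitals mark matches, on either strand, to CCAAT, to the GC box GGGCGG and to the homeodomain core TAATTA. The Nes window lies at chr3:87970843-87971042 and the Fabp7 window at chr10:57784673-57784872.
Nes: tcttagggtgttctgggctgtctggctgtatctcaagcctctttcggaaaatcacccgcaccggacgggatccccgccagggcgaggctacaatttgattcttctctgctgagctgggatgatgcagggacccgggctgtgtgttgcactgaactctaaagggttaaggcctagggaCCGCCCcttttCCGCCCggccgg
Fabp7: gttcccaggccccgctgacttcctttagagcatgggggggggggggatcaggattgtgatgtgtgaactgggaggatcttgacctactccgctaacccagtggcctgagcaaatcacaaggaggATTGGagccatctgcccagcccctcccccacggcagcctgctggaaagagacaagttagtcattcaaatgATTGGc
The Nes window held 2 GC boxes, 11 CpG dinucleotides and 59.0% G and C. The Fabp7 window held 2 CCAAT matches, 3 CpG dinucleotides and 57.0% G and C. Of the 10 markers, 8 had an entry, with 13 windows between them, and their G and C content ran from 50% in a window of Pax6 to 73.5% in the 3 overlapping windows of Msi2, with a median of 60.5% against 51.5% over all 32851 windows. A CCAAT match was found in 5 of the 13 windows, a GC box in 6 and the homeodomain core in 0, where 28.4%, 24.6% and 4.19% of all windows held them, and 3 windows of each of the first 2 counts were the overlapping ones of Msi2.

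Taken per gene length, the markers spanned a wide range, and the order was led by Fabp7. CPM per kilobase of the deposited gene length is the scale in this paragraph where CPM alone is not named. That length is the summed exon length, which need not be the length of the transcript used. The paper holds that protocols for long reads lack fragmentation and in theory carry no bias by length. It also reports only a weak association of gene length with expression in this dataset. Division by length can thus by itself shift the order of the markers. Fabp7 averaged 4792 ± 1385 (SD, n = 7) and ranked 22 among the 13305 genes. Vim followed at 498 ± 29.9, Ddah1 at 82.0 ± 7.20 and Nes at 49.9 ± 12.1, each above the next in all 7 samples with ranges that did not overlap. Below them came Lhx2 at 21 ± 5.9 and Msi2 at 15.8 ± 1.41, whose ranges overlapped, since Lhx2 was the higher of the pair in 6 of 7 samples. Msi1 stood at 6.85 ± 1.33, below Msi2 in every sample. The lowest were Pax6 at 2.47 ± 0.15, Fut9 at 1.86 ± 0.476 and Prom1 at 1.60 ± 0.284. Pax6 exceeded Fut9 in 7 of 7 samples although their ranges over samples overlapped, and Fut9 exceeded Prom1 in 5 of 7. Without division by length, mean CPM was 5990 for Fabp7, 2360 for Vim, 326 for Ddah1 and 320 for Nes. In CPM the ranges of Ddah1 (289 to 370) and Nes (211 to 409) overlapped. Msi2 stood above Lhx2 in CPM, with means of 165 and 92.3. Together the markers took between 0.783% and 1.25% of all counts of a library, and Fabp7 and Vim alone made up 87.0% to 92.7% of the marker counts.

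**Figure D1:**
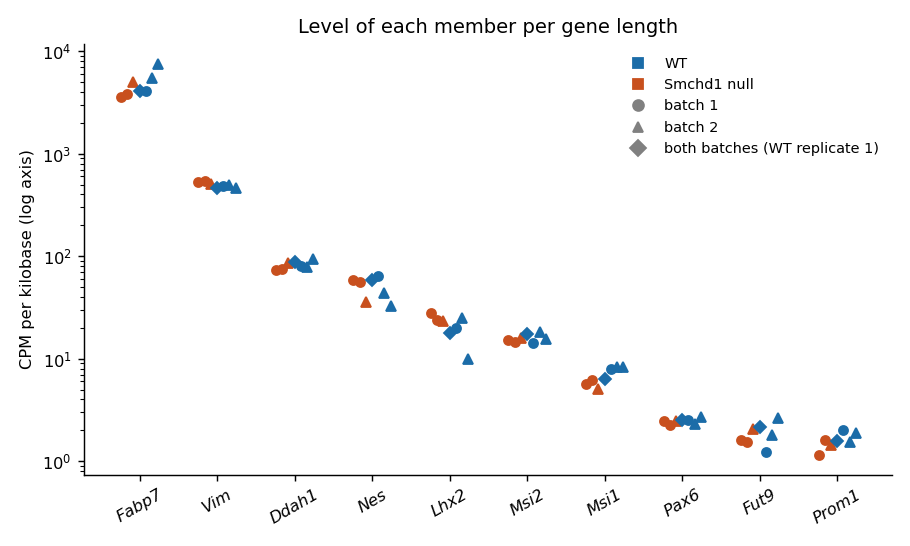
Level of each marker in CPM per kilobase of gene length (vertical log axis) for the 7 samples, 1 point per sample, with colour for genotype and shape for sequencing batch. Fabp7 lies between 3609 and 7571 in all samples, far above Vim at 461 to 538, and Pax6, Fut9 and Prom1 lie together at the bottom between 1.2 and 2.7.

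The first question was whether the markers differed between the genotypes. None of the 10 did at an adjusted p under 0.05, nor at the more liberal 0.25 (limma, Benjamini-Hochberg over 13305 genes), where 0.0902% and 1.08% of all genes were called. At an unadjusted p under 0.05 there were 2 markers, Msi1 and Fabp7, both with lower values in Smchd1-null samples, beside 13.9% of all genes. With the batch share of each sample as a covariate there were 2 as well, Msi1 and Lhx2, beside 1061 of the 13305 genes. In every fit with this covariate the share of WT replicate 1 was assumed to lie midway between the batches, since its true share is not given. With edgeR's quasi-likelihood test and with DESeq2, 1 marker was under 0.05 unadjusted in each and 0 after adjustment. Without WT replicate 2 or without Smchd1-null replicate 3, Msi1, Fabp7 and Lhx2 passed 0.25, in fits that called 2924 and 3153 of all genes. The logFC was above 0 for 3 markers and below 0 for 7, with a median of -0.15 beside 0.0049 for all genes. In bulk samples such as these, fewer cells of a type and less RNA per cell cannot be told apart.

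The Musashi proteins Msi1 and Msi2 bind RNA and repress the translation of targets that would let progenitors differentiate. Msi1 (chromosome 5, 115429599 to 115455698, GRCm38) was measured at 36.6, 46.4, 48.5 and 47.7 CPM in WT replicates 1 to 4 and at 33.0, 36.3 and 29.4 CPM in Smchd1-null replicates 1 to 3. All null samples were below all WT samples, though WT replicate 1 was the lowest WT sample by far and barely above Smchd1-null replicate 2. Msi1 and Vim were the only markers whose genotypes did not overlap, a pattern seen in 5.53% of all genes. The logFC of Msi1 was -0.37 (SE 0.15, unadjusted p = 0.0286, adjusted p = 0.326, limma), a fold of 0.774 with a 95% interval from 0.618 to 0.970. Within batch 1 the difference in mean log2 CPM was -0.42 and within batch 2 it was -0.70. Here and below, differences within a batch leave out WT replicate 1, which for Msi1 was the lowest WT sample. In batch 1 they set WT replicate 2 against Smchd1-null replicates 1 and 2. In batch 2 they set WT replicates 3 and 4 against Smchd1-null replicate 3. Each thus rests on a single sample of 1 genotype. With the batch share of each sample as a covariate the logFC was -0.46 (SE 0.13, limma, unadjusted p = 0.0035, adjusted p = 0.328). The interval of that fold ran from 0.597 to 0.884. Msi2 (chromosome 11, 88339382 to 88718513) ranged from 149 to 189 CPM in WT and from 151 to 165 CPM in Smchd1-null samples, with a fold of 0.896 (95% interval 0.753 to 1.07, adjusted p = 0.534). The ratio of Msi1 to Msi2 within a library, which does not depend on library scaling, was 0.203, 0.311, 0.257 and 0.295 in WT and 0.209, 0.241 and 0.178 in Smchd1-null samples. The groups overlapped, and the mean log2 ratio differed by -0.34 (p = 0.143, exact permutation test over 35 assignments, two-sided, 0.214 after adjustment over 3 ratios, smallest p possible 0.0286).

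Vim and Nes encode the intermediate filament proteins vimentin and nestin, which are laid down together in the long processes of radial glia. Vim (chromosome 2, 13573927 to 13582826) was the steadiest marker. It was measured at 2198, 2318, 2346 and 2186 CPM in WT replicates 1 to 4 and at 2512, 2554 and 2405 CPM in Smchd1-null replicates 1 to 3. Every null sample lay above every WT sample, but by little, and the fold was 1.11 (95% interval 0.954 to 1.28, logFC 0.14, SE 0.10, adjusted p = 0.505). The differences within batch 1 and batch 2 were 0.13 and 0.09 on the log2 scale. Nes (chromosome 3, 87971078 to 87980451) had a mean level of 319 ± 89.0 CPM (SD) over the 4 WT samples against 323 ± 79.5 CPM over the 3 null samples, with a fold of 1.08 (95% interval 0.830 to 1.41, adjusted p = 0.786). The sign of this small difference was not stable, being -0.15 and -0.08 within the batches on the log2 scale. The ratio of Nes to Vim overlapped between the genotypes, with a log2 difference of -0.11 (exact permutation p = 0.657, two-sided, 0.657 after adjustment).

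Fabp7, also known as brain lipid-binding protein, carries fatty acids in radial glia and their astrocytic descendants. It lies at chromosome 10, 57784881 to 57788450, and was measured at 5059, 5116, 6774 and 9464 CPM in WT replicates 1 to 4 and at 4511, 4792 and 6211 CPM in Smchd1-null replicates 1 to 3. The genotypes overlapped, and WT replicate 4 was far above all other samples. The fold was 0.790 (95% interval 0.625 to 0.999, logFC -0.34, SE 0.16, unadjusted p = 0.0493, adjusted p = 0.360). This fit has no batch term, and batch 2 holds 2 of the 4 WT samples and 1 of the 3 null samples. Within batch 1 the difference in mean log2 CPM was -0.14 and within batch 2 it was -0.37. With the batch share of each sample as a covariate the logFC was -0.14 (SE 0.10, limma, unadjusted p = 0.176, adjusted p = 0.777), with an interval of the fold from 0.780 to 1.05. Without WT replicate 4 the logFC was -0.24 (adjusted p = 0.517). Markers of astrocytes, which also express Fabp7, were not even across the samples either. The summed level of the 6 listed astrocyte genes was 591, 430, 547 and 1140 CPM in WT replicates 1 to 4 and 335, 334 and 551 CPM in Smchd1-null replicates 1 to 3, highest in the same WT replicate 4. Most of this sum came from Aldoc, at 389 CPM on average, while Aldh1l1 lay between 21.5 and 34.8 CPM. The part of these genes in the Fabp7 values was not tested.

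**Figure D2:**
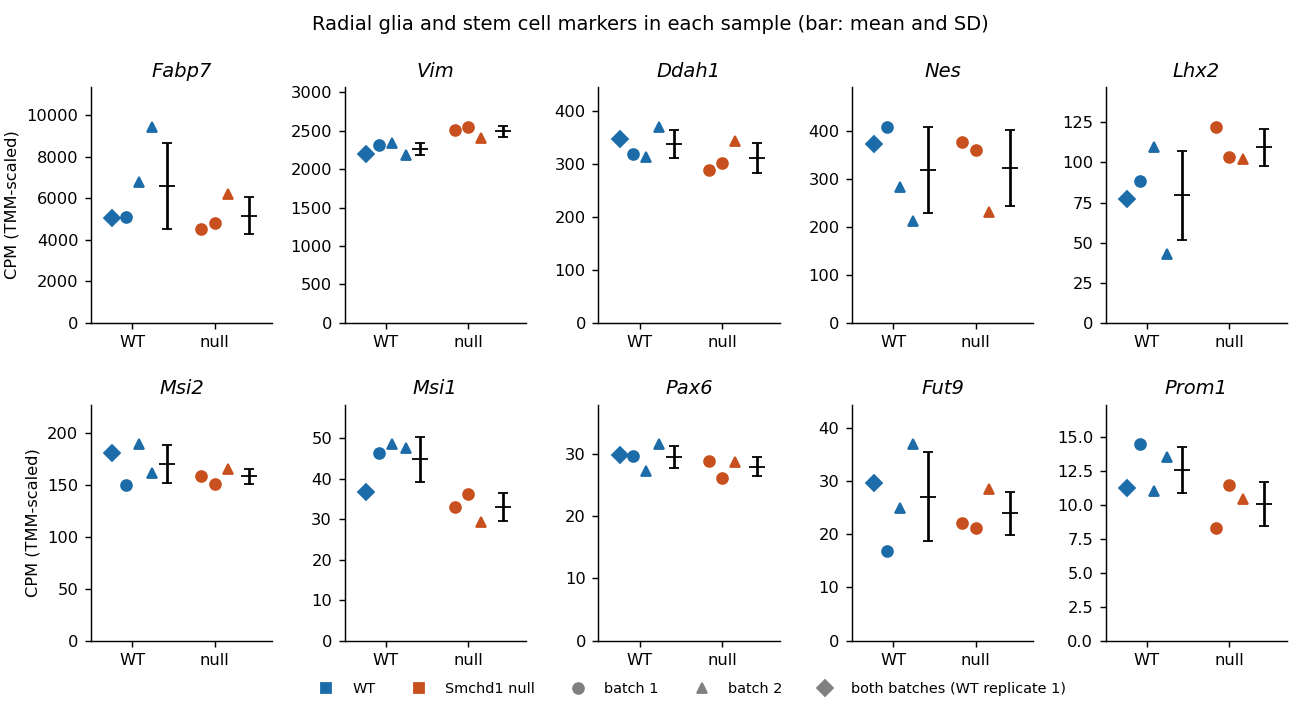
CPM of each marker in the 7 samples (linear axes from 0), WT on the left and Smchd1-null on the right of each panel, with the group mean and SD as a bar beside the points and the shape of a point giving its batch. Only in the Vim and Msi1 panels do the genotypes not overlap, a pattern of 5.53% of all genes. In the Nes, Fabp7, Fut9 and Msi2 panels the triangles of batch 2 part from the circles of batch 1, a pattern of 32.6% of all genes.

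Lhx2 and Pax6 are homeodomain transcription factors that specify the cortex and the eye. Lhx2 (chromosome 2, 38339281 to 38369733) was measured at 77.4, 88.2, 110 and 43.2 CPM in WT replicates 1 to 4 and at 122, 104 and 102 CPM in Smchd1-null replicates 1 to 3. WT replicate 4 was the lowest of all samples, and WT replicate 3 lay inside the null range. The fold was 1.33 (95% interval 0.998 to 1.77, logFC 0.41, SE 0.19, adjusted p = 0.362), and the logFC was 0.36 with the batch share as a covariate (adjusted p = 0.607) and 0.26 without WT replicate 4 (adjusted p = 0.512). Pax6 (chromosome 2, 105668900 to 105697364) stayed between 26.2 and 31.6 CPM in all 7 samples, with a fold of 0.941 (95% interval 0.755 to 1.17, adjusted p = 0.801). The log2 ratio of Pax6 to Lhx2 was lower by 0.61 in Smchd1-null samples (null minus WT -0.61, exact permutation p = 0.143, two-sided, 0.214 after adjustment), and the difference was -0.31 without WT replicate 4.

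The remaining markers act at the cell surface or in metabolism. Prom1 encodes prominin-1, a glycoprotein of membrane protrusions that is used to sort stem cells. Prom1 (chromosome 5, 43993620 to 44102032) was the least counted marker, with 22 to 86 counts per sample, and lay between 11 and 14.4 CPM in WT and between 8.26 and 11.4 CPM in Smchd1-null samples. Its fold was 0.851 (95% interval 0.614 to 1.18, adjusted p = 0.631). Fut9 encodes the fucosyltransferase that makes the Lewis X sugar, a surface mark of neural stem cells, and lies at chromosome 4, 25609332 to 25800244. It had a fold of 0.869 (95% interval 0.642 to 1.18, adjusted p = 0.656). Ddah1, an enzyme that breaks down methylated arginines which inhibit nitric oxide synthesis, lies at chromosome 3, 145758675 to 145894277. It ranged from 314 to 370 CPM in WT and from 289 to 344 CPM in Smchd1-null samples, with a fold of 0.910 (95% interval 0.770 to 1.07, adjusted p = 0.576). The intervals of Prom1 and Fut9 reach down to folds of 0.614 and 0.642 in this fit, which has no batch term. Once the batch share entered the fit, the Prom1 interval ran from 0.579 to 1.06. A loss of Prom1 to a fold of 0.614 is thus not excluded by these samples. For Fut9 the sign turned in that fit, to a logFC of 0.12 (limma, adjusted p = 0.908). Its interval then ran from 0.847 to 1.39, which does not reach down to 0.642.

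**Figure D3:**
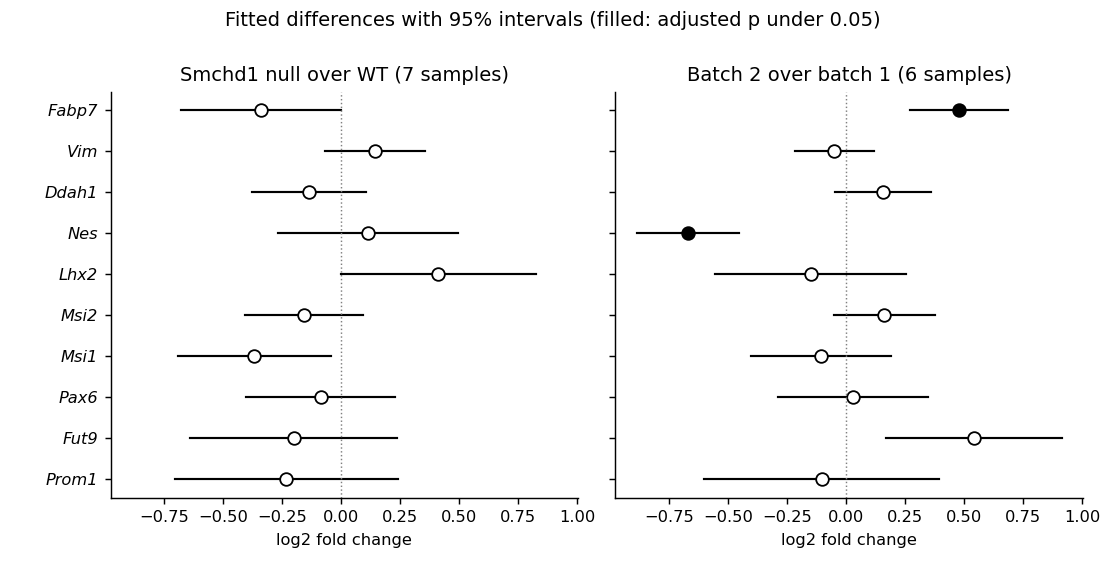
Fitted logFC of each marker (points) with its 95% interval (lines) for Smchd1-null over WT in 7 samples on the left and for batch 2 over batch 1 in 6 samples on the right, filled where the adjusted p was under 0.05. No point is filled on the left, and Fabp7 at 0.48 and Nes at -0.67 are filled on the right.

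The second question was how far the markers differed between the sequencing batches. WT replicate 1 was left out of this comparison, since its counts combine both, and genotype was kept in the model. Of the 10 markers, 2 differed at an adjusted p under 0.05, Nes with lower and Fabp7 with higher values in batch 2, where 11.3% of all genes were called (5.1% higher and 6.24% lower). At 0.25 Fut9 joined them on the higher side, so that 3 of 10 markers were called beside 37.1% of all genes (18.1% higher and 19% lower). Shares of 2 and 3 in 10 do not stand far from these backgrounds. The kit version, the sequencing run and the cultures that went into a batch cannot be told apart.

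Nes was measured at 409, 376 and 360 CPM in the batch 1 samples (WT replicate 2 and Smchd1-null replicates 1 and 2) and at 283, 211 and 231 CPM in the batch 2 samples (WT replicates 3 and 4 and Smchd1-null replicate 3). The batches did not overlap, and the drop was of like size in either genotype, -0.74 among WT and -0.67 among Smchd1-null samples on the log2 scale. The fold of batch 2 over batch 1 was 0.628 (95% interval 0.540 to 0.729, logFC -0.67, SE 0.10, adjusted p = 0.00359, limma). WT replicate 1, with reads of both batches, had 372 CPM, 0.04 below the batch 1 mean and 0.63 above the batch 2 mean on the log2 scale.

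Fabp7 moved the other way. It was measured at 5116, 4511 and 4792 CPM in the same batch 1 samples and at 6774, 9464 and 6211 CPM in the batch 2 samples, again with no overlap. The fold was 1.39 (95% interval 1.21 to 1.61, logFC 0.48, SE 0.10, adjusted p = 0.0106), with differences of 0.65 among WT and 0.42 among Smchd1-null samples. WT replicate 1 lay on the batch 1 side here too, at 5059 CPM. Without WT replicate 4, the sample with the highest Fabp7, the logFC was 0.41 (adjusted p = 0.00265). Without WT replicate 2 the logFC was 0.42 for Fabp7 (adjusted p = 0.363) and -0.67 for Nes (adjusted p = 0.222). Without Smchd1-null replicate 3 it was 0.64 for Fabp7 and -0.74 for Nes (adjusted p = 0.394 for both). The differences were thus about as large, and over all genes these fits called 3 and 1 at 0.05 in place of 1508. Without Smchd1-null replicate 1 the logFC of Fabp7 was 0.47 (adjusted p = 0.078). With edgeR the adjusted p of Fabp7 was 0.097 and with unweighted voom it was 0.080.

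**Figure D4:**
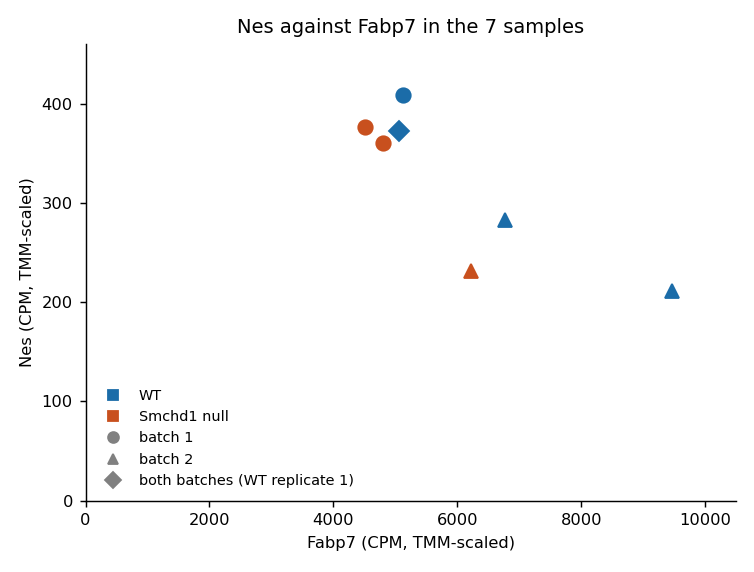
Nes (vertical axis) against Fabp7 (horizontal axis) in CPM, 1 point per sample, with colour for genotype and shape for batch. The 3 batch 2 samples lie at the lower right with Nes at 211 to 283 and Fabp7 at 6211 to 9464, and the 3 batch 1 samples and WT replicate 1 lie at the upper left with Nes at 360 to 409 and Fabp7 at 4511 to 5116.

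Fut9 was measured at 16.9, 22.1 and 21.2 CPM in the batch 1 samples and at 24.9, 36.9 and 28.6 CPM in the batch 2 samples. All batch 2 samples were above all batch 1 samples, with a fold of 1.45 (95% interval 1.12 to 1.88, adjusted p = 0.0629), and WT replicate 1 was near the batch 2 mean at 29.5 CPM. Msi2 was the other marker whose batches did not overlap, with 149 to 158 CPM in batch 1 and 161 to 189 CPM in batch 2 (fold 1.12, 95% interval 0.964 to 1.30, adjusted p = 0.301). Batches without overlap were found for 4 of 10 markers and for 32.6% of all genes. For the remaining 6 markers the folds ran from 0.901 for Lhx2 to 1.11 for Ddah1, with adjusted p between 0.294 and 0.918.

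Gene length moved with both comparisons. Genes are no independent replicates, but as a description over the 13305 of them the Spearman correlation of deposited length with logFC was -0.382 for genotype and 0.349 for batch. Fabp7 is short at 1250 bases and Nes long at 6416, beside a median of 4160 over all genes, so these 2 markers run against the trend of the batch comparison. When the length trend was removed from each sample, the batch logFC became 0.65 for Fabp7 (adjusted p = 0.0035) and -0.77 for Nes (adjusted p = 0.00178). Fut9, the longest marker at 13824 bases, fell to a logFC of 0.29 (adjusted p = 0.303). In the genotype comparison Msi1, at 5800 bases, had a logFC of -0.29 without the trend (adjusted p = 0.465), and Pax6, at 11694 bases, changed sign from -0.09 to 0.09. Fabp7 went from -0.34 to -0.49 (adjusted p = 0.358) and Lhx2 from 0.41 to 0.44 (adjusted p = 0.404), so these 2 grew.

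Whether the genotype difference itself varied with the batch was tested by an interaction term in the 6 samples of 1 batch each, which left 2 residual degrees of freedom. No marker was called (adjusted p = 0.999 for each, limma), as was no gene of the 13305, with 193 genes and 0 markers at an unadjusted p under 0.05. The edgeR fit also called 0, with 189 genes under 0.05 unadjusted. The intervals were wide. For Msi1 the difference of differences was -0.31 on the log2 scale, with a 95% interval from -1.0 to 0.39.

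The markers varied unequally within the genotypes. The biological coefficient of variation (edgeR, tagwise) was 0.226 for Lhx2, 0.225 for Fut9, 0.217 for Nes and 0.207 for Fabp7, above the median of 0.175 over the 9538 genes with a mean of at least 10 CPM. It was 0.128 for Vim, and Msi2, Ddah1, Pax6 and Msi1 lay between 0.136 and 0.157. Over all 7 samples the highest value was 2.83 times the lowest for Lhx2 and 1.17 times for Vim, where the median gene of that abundance had 1.61. For Pax6 the coefficient of variation over samples was 6.07%, below the 8.97% that counting alone gives, so its samples could not be told apart. For Prom1 it was 17.7% beside 14% from counting, and for Vim 6.02% beside 0.993%. These counting errors do not include any other source of error.

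For each marker the gene with the most similar profile was sought among the 9538 genes, by Pearson correlation of log-CPM over the 7 samples, as a description only, since all points share libraries and batches. Ghitm was closest to Fabp7 (r = 0.997), with 173 to 186 CPM in WT replicates 1 and 2 and the null samples of batch 1 and 207 to 267 CPM in the batch 2 samples. Nrcam, a neuronal adhesion gene, was closest to Ddah1 (0.990), and Fubp3 to Fut9 (0.991). Lhx2 and Vim were closest to ribosomal protein pseudogenes or copies, Rps2-ps10 (0.987) and Rps3a2 (0.979), and Nes to the predicted gene Gm5643 (0.990), whose reads are hard to tell from those of near-identical genes. Pcf11 (0.971), Kcnc4 (0.977), Rab22a (0.976) and Bckdhb (0.97) were closest to Pax6, Prom1, Msi1 and Msi2.

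The counts of the markers themselves shared few bases with other genes. In no marker did a transcript match one of another gene over at least 500 bases at 85% identity, and over at least 200 bases Prom1 alone did, with 160 genes and a longest match of 337 bases. Prom1 also was the only marker with exons overlapped by an annotated antisense gene, Gm16401, over 424 bases, and that gene had 1 count in all.

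The wider set of radial glia and neural stem cell genes gives the setting. All 34 listed genes passed the filter. In the genotype comparison none passed 0.05, and at 0.25 there was 1 higher gene, Hopx, a homeodomain-only protein of outer radial glia, with a logFC of 0.76 (adjusted p = 0.233), and 1 lower gene, Ednrb, the endothelin B receptor, with a logFC of -0.78 (adjusted p = 0.233). Of all genes, 0.474% were called higher and 0.609% lower at that threshold. With edgeR or DESeq2 none of the 34 passed it, and the count was 14 without WT replicate 2 or without Smchd1-null replicate 3 and 0 without any other sample. Over all genes edgeR and DESeq2 called 8 and 32 at 0.25. The fits without WT replicate 2 and without Smchd1-null replicate 3 called 2924 of 12891 and 3153 of 13395 genes, and those without another sample 1 to 43. The logFC was below 0 for 26 of the 34, with a median of -0.21 beside 0.0049 for all genes. With the batch share as a covariate it was below 0 for 24, with a median of -0.09, and without WT replicate 4, where the list summed to 8347 CPM against 5218 to 6531 CPM elsewhere, for 23 of 33 with a median of -0.20. The most abundant of them per library were Ptprz1, a receptor phosphatase, at 1083 CPM on average (logFC -0.51, adjusted p = 0.288) and the matrix protein gene Tnc at 625 CPM (logFC -0.06, adjusted p = 0.891). Between batches 7 of the 34 were higher and 1 lower in batch 2 at 0.05, beside the 5.1% and 6.24% of all genes. Named after their values were seen, the higher ones were Notch1, Cd9, Ednrb, Ptprz1, Emx2, Mki67 and Gpm6a and the lower one was Fgfr1. Notch1, the receptor that keeps radial glia from differentiating, had the widest change, from 2.85 ± 1.47 CPM in batch 1 to 16 ± 2.7 CPM in batch 2 (SD, n = 3 each, logFC 2.40, adjusted p = 0.0029, limma). Its counts were low, from 6 to 84 per sample.

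Markers of neighbouring lineages were measured in the same libraries. Of 6 astrocyte genes 5 were tested. Aldoc, a glycolytic enzyme of astrocytes, was lower in Smchd1-null samples at 0.25 (logFC -0.81, adjusted p = 0.233), a call not made by edgeR or DESeq2, and between batches Aldoc (logFC 0.74, adjusted p = 0.0134) and the connexin gene Gja1 (logFC 0.73, adjusted p = 0.00429) were higher in batch 2, as Fabp7 was. The summed astrocyte level, most of it from Aldoc, was 334 to 430 CPM in batch 1 and 547 to 1140 CPM in batch 2. Of the 5 tested astrocyte genes, 4 had a batch logFC above 0 and 1, Aldh1l1, below 0 (-0.06, limma, adjusted p = 0.858). No genotype call was made at 0.25 among the 7 neuronal, 2 intermediate progenitor, 8 oligodendrocyte lineage and 1 ependymal genes that passed the filter. Neuronal genes summed to 363 to 423 CPM, most of it from Map2 at 347 CPM on average, with Tubb3 at 11 CPM. Genes of the oligodendrocyte lineage summed to 1036 to 1514 CPM, led by the progenitor factor Olig2 at 747 CPM, with Cnp at 151. WT replicate 4 was the highest sample in the oligodendrocyte lineage, neuronal and intermediate progenitor lists as well, and the myelin gene Mbp reached 96.2 CPM there against a lowest sample of 0.262. Intermediate progenitor genes, led by Btg2 at 107 CPM and Insm1 at 27.1, and ependymal genes, led by Foxj1 at 30.9 CPM, were lower in sum than the neuronal list in every sample. The part of these cell types in the marker values was not tested.

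**Figure D5:**
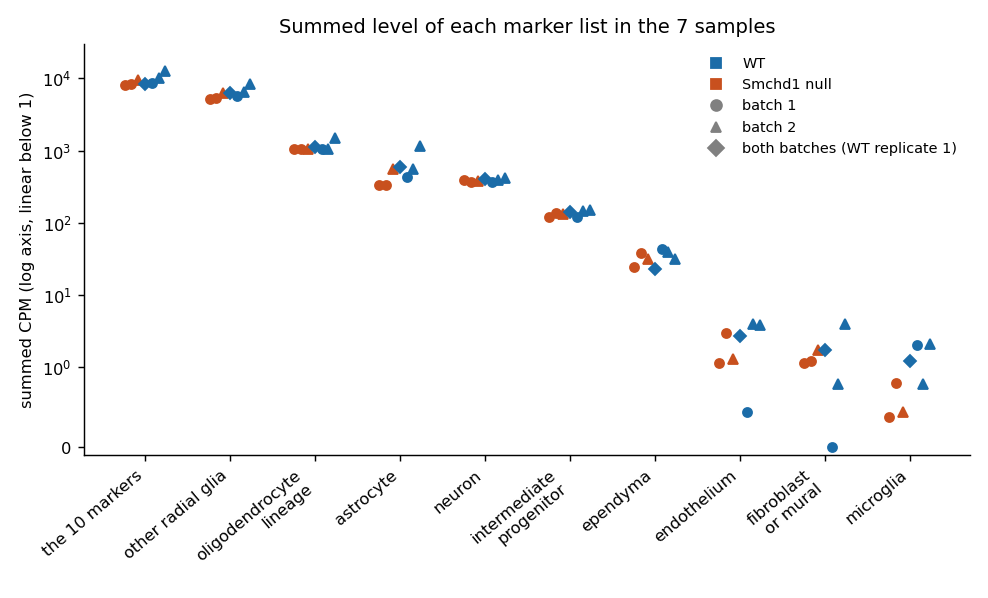
Summed CPM of each marker list in the 7 samples (vertical axis logarithmic above 1 and linear below), with colour for genotype and shape for batch. The 10 markers sum to 8061 to 12566 CPM, and the microglial, endothelial and fibroblast or mural lists stay below 4 CPM in every sample.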

How the data were processed

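Gene-level counts of 7 direct-cDNA nanopore libraries were used. To make the deposited counts, the authors aligned long reads to mm10 (minimap2 2.17) and assigned primary alignments to Gencode M23 genes by the long-read mode of featureCounts, summing the runs of a sample sequenced in both batches; values were not normalised and strand use is not stated. Symbols and coordinates came from Gencode M21 (GRCm38), which matched 55154 of 55335 identifiers with versions ignored. Promoters came from RefSeq, with no entry for Msi1 and Fut9.

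Genes were kept by filterByExpr (13305), scaled by TMM and fitted as in the study with voomWithQualityWeights, genotype alone, in limma 3.58.1 (R 4.3.3), with two-sided tests and Benjamini-Hochberg adjustment over all 13305 genes. The batch fit used genotype and batch in 6 samples, and the interaction fit used voom without sample weights. log-CPM had a prior count of 2. Alternatives used edgeR 4.0.16, DESeq2 1.42.0, other scalings, filters, covariates, the replicate block, removal of the length trend (lowess, span 0.3), thinning and each sample left out. Transcripts were compared with BLAST 2.17.0. The scripts were tested on simulated data.

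The markers and lists were chosen with earlier results of these data known. Named genes were the 10 markers and Smchd1, in each other list those with an adjusted p under 0.25 by genotype and the 2 of highest mean CPM, and the gene most similar to each marker. Counting errors and floors (3 counts) cover counting only. Replicates of a genotype differed by more than sampling noise (chi-square per degree of freedom 2.65 to 21.1).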

Additional observations from a re-analysis of the deposited data

Results flagged for a closer look

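Msi1 in WT replicate 1 was set apart from the other WT samples. Its log2 CPM was 5.21, while the other 3 WT samples lay between 5.55 and 5.61, and the gap took 0.844 of the group's range, above Dixon's critical value for 4 samples. Chance sets apart about 1 in 20 groups, and 14 groups of 4 WT values were compared, so 0.7 would be expected. WT replicate 1, at 36.6 CPM, is the sample whose counts combine both batches. The WT samples of a single batch had 46.4 CPM in batch 1 and 48.5 and 47.7 CPM in batch 2. The cause of the low value was not tested.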

How the results depend on the processing

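For genotype, 0 markers passed 0.05 under all 20 alternatives, and Smchd1 stayed called. At 0.25 the leave-one-out counts ran from 0 to 3, with Fabp7, Msi1 and Lhx2 called without WT replicate 2 or without Smchd1-null replicate 3, where 2924 and 3153 of all genes were called. For the 34 other radial glia genes (2 called at 0.25) the count was 0 with edgeR, DESeq2, unweighted voom, all genes with a count and either batch covariate, 1 without the length trend or after thinning, and 0 to 14 leaving out 1 sample (14 without WT replicate 2 or Smchd1-null replicate 3, otherwise 0). For other cell types (1 called) it was 0 with edgeR, DESeq2, unweighted voom, all genes, either batch covariate and the replicate block with or without the length trend, 2 with at least 10 counts in every sample, and 0 to 5 leaving out 1 sample (5 without Smchd1-null replicate 3, 4 without WT replicate 2). For batch, 1 marker passed 0.05 with edgeR or unweighted voom and 0 to 2 leaving out 1 sample, and at 0.25 there were 5 with library size alone and 0 to 5 leaving out 1 sample. Over all genes the calls at 0.05 numbered 12 with limma, 1 with edgeR and 17 with DESeq2 for genotype, and 1508, 238 and 483 for batch. At 0.25 they numbered 144, 8 and 32, and 4942, 3301 and 1680.

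Signs turned for small differences, none of them called. Genotype logFC of Nes was -0.19 with the batch share, -0.15 with batch and no WT replicate 1, and ran from -0.13 to 0.22 leaving out 1 sample (-0.13 and -0.10 without Smchd1-null replicates 1 and 2). Pax6 turned to 0.092 without the length trend and 0.033 thinned, and Fut9 to 0.12 and 0.17 with the batch covariates and 0.0027 without the length trend. Batch logFC turned to -0.19 for Pax6 and -0.024 for Msi2 without the length trend and to 0.018 for Prom1 thinned. Leaving out 1 sample it ran from -0.022 to 0.092 for Pax6 (-0.022 and -0.0057 without Smchd1-null replicates 2 and 3), from -0.26 to 0.049 for Msi1 (highest without Smchd1-null replicate 3) and from -0.47 to 0.041 for Lhx2 (highest without WT replicate 4). The log2 ratio of Nes to Vim ran from -0.28 to 0.089 leaving out 1 sample, with 0.013 without WT replicate 2 and 0.089 without Smchd1-null replicate 3. The cause was not tested.

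The labels do not say whether shared replicate numbers pair the samples. Correlations were -0.0378, 0.363 and 0.094 between same-numbered samples of the 2 genotypes and ran from -0.537 to 0.301 between the others. So few values cannot decide it. With the replicate number as a block, 0 markers were called, and Nes was -0.18 and Fut9 0.14 (-0.13 and 0.21 also without the length trend). Over all genes the block gave 23 calls at 0.05, beside 12 in the main fit. Of the markers, Prom1 had the fewest counts, 22 to 86 per sample, followed by Fut9 and Pax6.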
